A study of Nicotiana tabacum with 36 samples.

Results

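The levels of 3 GRAS genes were followed over 6 time points in 2 tobacco cultivars. They are the GRAS genes among the hub transcription factors (TFs) of the pink co-expression module of the study, 3 of the 35519 genes in the deposited tables, and all 3 passed the filter on low counts that left 23740 genes. SCL13 is Nitab4.5_0000143g0040, and the other 2 genes are both annotated as PAT1. Nitab4.5_0000092g0120 lies on chromosome 21 and is written PAT1-21 here, and Nitab4.5_0000749g0090 lies on chromosome 8 and is written PAT1-8. The study took its hub genes from genes called in these same libraries, and it singled the module out for its course over the time points of both cultivars, at 0.5 h above all. The calls against 0 h, the comparisons of the cultivars at 0.5 h and the correlations between the 3 genes are therefore descriptions of these libraries and no independent evidence.

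GRAS genes encode plant-specific transcriptional regulators that share a conserved carboxy-terminal domain and take their name from GAI, RGA and SCARECROW. The family includes the DELLA repressors of gibberellin signalling and the SCARECROW-like (SCL) proteins, and members of its PAT1 branch have been placed in light and stress signalling. In Arabidopsis, PAT1 is a positive regulator of phytochrome A signalling and SCL13 a positive regulator of phytochrome B signalling.

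Leaves of seedlings at the five-leaf stage were collected from the cold-resistant cultivar Yanyan97 (YT) and the cold-susceptible cultivar Taiyan8 (TT), both under a daily 16 h light and 8 h dark cycle. Seedlings were sampled before cold (0 h, CK) and after 0.5, 1, 2, 4 and 8 h at 4 °C, with 3 biological replicates for each of the 12 groups. No seedlings left uncooled over the same period were analysed here, so cold and the time of day cannot be told apart in any comparison with 0 h. Fewer cells of a type and less RNA per cell cannot be told apart either in RNA from whole leaves. The label of the tissue was not checked against leaf marker genes, because the sources used here pair none of them with the gene models.

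The libraries held 15484160 to 26691552 counts on genes, and the library of YT at 4 h, replicate 3, was the lowest, with the next at 22239372. The median correlation of a library with its replicates was 0.945 to 0.9749 on the log2 scale of counts scaled to library size (CPM). The names of the TPM columns end in the letter A or B, whose meaning is not given in the sources used here. Letter B stood on 1 of the 18 YT libraries and on 9 of the 18 TT libraries, among them all 3 at 0 h. In the 5 groups that held both letters, the 7 libraries with B lay on average 0.24 (SCL13), 0.28 (PAT1-21) and 0.23 (PAT1-8) log2 CPM above the mean of their group, and the 8 libraries with A lay at -0.21, -0.25 and -0.20. The part of this letter in the results was tested only by a fit with the letter as a term, added after seeing the data.

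On the Nitab-v4.5 gene models SCL13 spans bases 1030518 to 1032122 of chromosome 11, PAT1-21 spans 61068457 to 61070205 of chromosome 21 and PAT1-8 spans 89121141 to 89122889 of chromosome 8. All 3 lie on the plus strand as a single exon, of 1605 bases in SCL13 and of 1749 bases in each PAT1 gene. The authors counted each read without regard to strand and left out reads that mapped to several places, so reads that the PAT1 genes share were counted for neither. The oligos that the study designed for quantitative PCR mark the stretch of 2 of the transcripts that it also measured outside these libraries, and they are given here to identify SCL13 and PAT1-21, 5′ to 3′, with no capitals because no base is singled out.
SCL13 forward: ttgcacagggaagtcagtgg
SCL13 reverse: gcttctccatgtctaacccga
PAT1-21 forward: gcaacttcatcacacccctg
PAT1-21 reverse: gttccaccctttccttgccc
No oligos for PAT1-8 were used here. The study reports that every gene of the pink module it tested by quantitative PCR, on other samples, changed under cold much as in its RNA sequencing. Its PCR values for SCL13 and PAT1-21 were not compared here.

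SCL13 was the most abundant of the 3 genes before cold in both cultivars, in TPM, transcript levels scaled for gene length and depth. In YT at 0 h its TPM were 39.8, 32.2 and 51.0. After 0.5 h of cold they were 54.0, 68.5 and 70.0, and after 1 h 95.8, 99.8 and 86.9. The lowest library at 0.5 h lay just above the highest at 0 h, and those at 1 h lay above all of these. At 2 h the TPM of SCL13 in YT were 50.4, 36.5 and 34.6, back inside the range at 0 h. After 4 h they were 98.9, 49.9 and 57.8 and after 8 h 78.2, 54.9 and 54.0, with replicate 1 highest at both times.

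In TT the TPM of SCL13 were 26.4, 30.1 and 28.7 at 0 h. After 0.5 h of cold they were 111, 174 and 236, and after 1 h 142, 119 and 157, so every library of both times lay above 3 times the highest library at 0 h. After 2 h they were 58.5, 96.2 and 63.8, after 4 h 58.4, 69.2 and 114 and after 8 h 42.4, 50.2 and 49.0. All of these still lay above the libraries at 0 h, and replicate 2 at 2 h and replicate 3 at 4 h stood above the other 2.

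PAT1-21 was the scarcest of the 3 genes before cold. Its TPM in YT were 5.31, 5.26 and 7.32 before cold, 28.4, 34.6 and 31.5 after 0.5 h and 63.8, 50.5 and 49.2 after 1 h. After 2 h they were 17.3, 11.99 and 14.2, after 4 h 58.5, 13.8 and 20.5 and after 8 h 24.8, 30.4 and 20.5. No library in cold reached down to those at 0 h, and at 4 h replicate 1 was more than 2 times as high as either of the others. In TT its TPM were 5.01, 3.23 and 2.49 before cold, 61.7, 112 and 123 after 0.5 h and 64.1, 43.9 and 85.9 after 1 h. After 2 h they were 14.9, 34.3 and 14.6, after 4 h 11.9, 19.5 and 35.3 and after 8 h 41.2, 16.97 and 35.4. Each cold library of TT again lay above all 3 at 0 h, and from 2 h on the replicates of a time point differed by more than 2 times.

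PAT1-8 stood between the other 2 genes before cold. Its TPM in YT were 12.5, 13.3 and 14.4 before cold, 35.5, 41.9 and 49.1 after 0.5 h and 59.4, 53.6 and 54.9 after 1 h. After 2 h they were 30.7, 18.02 and 25.3, after 4 h 76.5, 20.4 and 27.99 and after 8 h 32.9, 45.3 and 26.4. Replicate 1 at 4 h was the highest YT library of this gene, and every cold library lay above those at 0 h. In TT its TPM were 6.24, 12.6 and 11.2 before cold, 77.0, 146 and 164 after 0.5 h and 74.2, 62.2 and 94.9 after 1 h. After 2 h they were 28.1, 50.6 and 29.7, after 4 h 16.97, 26.9 and 36.2 and after 8 h 61.5, 29.02 and 42.4. The cold libraries of TT were again above those at 0 h, and replicate 1 was the lowest of its group at 0, 0.5, 2 and 4 h but the highest at 8 h.

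**Figure D1:**
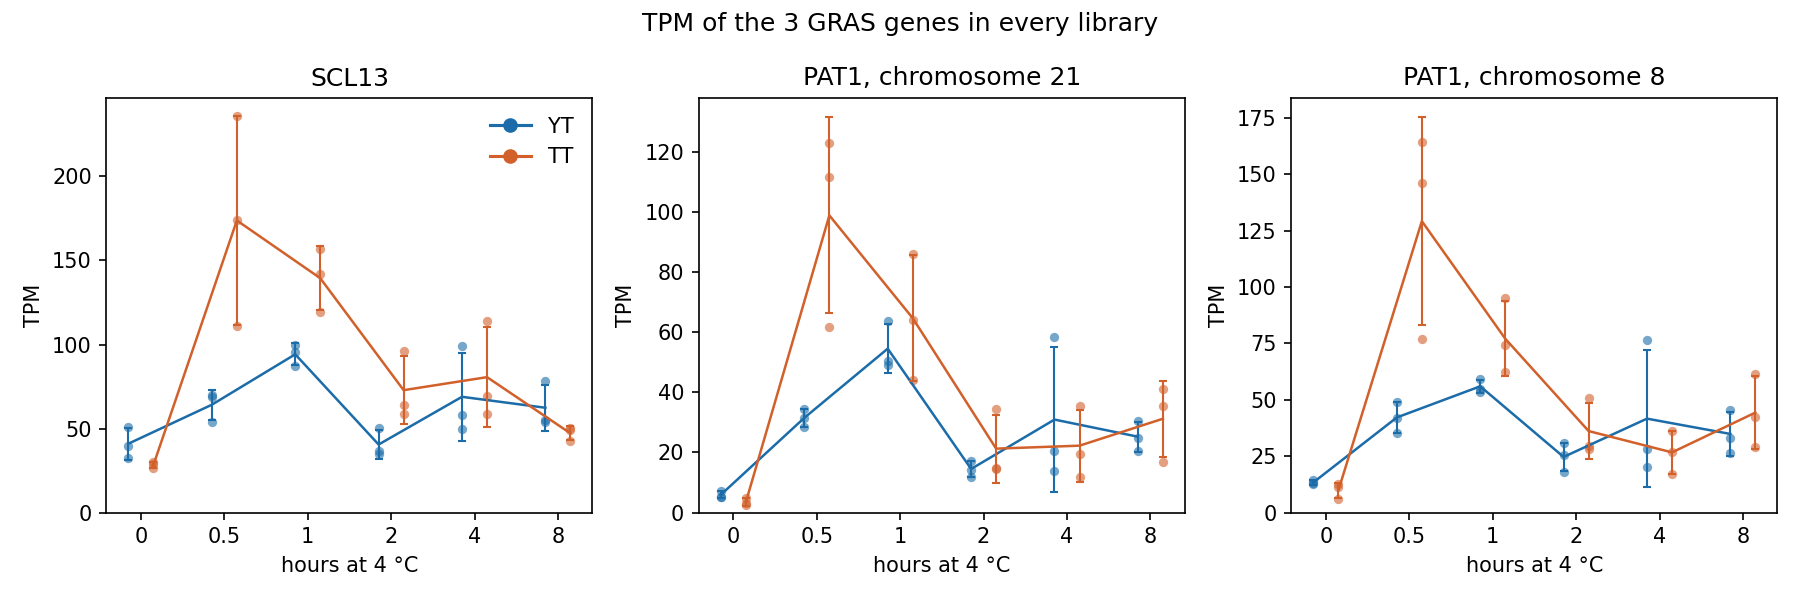
TPM (linear axis) against hours at 4 °C (time points evenly spaced) for the 3 GRAS genes, with a point for each library, lines through the group means and bars of 1 SD over 3 libraries, YT in blue and TT in orange. The means were highest at 1 h in YT and at 0.5 h in TT for each gene, and the largest bars belong to TT at 0.5 h (62.4 TPM in SCL13) and, among YT groups, to 4 h.

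The time of the highest mean was 1 h in YT and 0.5 h in TT for all 3 genes. SCL13 averaged 94.2 ± 6.58 TPM in YT at 1 h and 174 ± 62.4 TPM in TT at 0.5 h (SD, n = 3 each). PAT1-21 averaged 54.5 ± 8.10 TPM in YT at 1 h and 98.8 ± 32.6 TPM in TT at 0.5 h, and PAT1-8 averaged 56.0 ± 3.003 TPM in YT at 1 h and 129 ± 46.1 TPM in TT at 0.5 h (SD, n = 3 each). The change between 0.5 and 1 h was compared between the cultivars after these values had been seen. The change in YT minus that in TT was 0.66 ± 0.40 (SE) on the log2 scale for SCL13, 1.18 ± 0.63 for PAT1-21 and 0.94 ± 0.57 for PAT1-8. None of the 3 passed edgeR's quasi-likelihood test with Benjamini-Hochberg adjustment (adjusted p = 0.830, 0.814 and 0.830). The unadjusted p was under 0.05 for 0 of the 3, DESeq2 and limma called 0 as well, and edgeR called 0% of all genes tested, of which 1409 had an unadjusted p under 0.05. The 95% intervals of the difference were -0.16 to 1.47, -0.11 to 2.47 and -0.23 to 2.11, so a later peak in YT was neither shown nor limited to a small size.

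Ordered by mean TPM, TT at 0 h was the lowest of the 12 groups and TT at 0.5 h the highest for each of the 3 genes. The highest mean was 6.12 times the lowest in SCL13, 27.6 times in PAT1-21 and 12.9 times in PAT1-8. Both groups at 0 h were the 2 lowest of each PAT1 gene, whereas YT at 2 h came between them in SCL13. TT at 1 h came next below the highest, and YT at 1 h below that, in every gene. Of the 11 pairs of neighbours in each order, the TPM of 8 overlapped in SCL13, 8 in PAT1-21 and 9 in PAT1-8. In SCL13 the gaps lay above TT at 0 h, above TT at 8 h and above YT at 1 h. In PAT1-21 they lay above each of the groups at 0 h and above YT at 0.5 h, and in PAT1-8 above YT at 0 h and above YT at 1 h, so the middle of each order is not resolved beyond the spread.

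Cold was set against 0 h within YT to ask when each gene rose. A gene was called where its log2 fold change exceeded 1 in size and its adjusted p was under 0.05 over all 23740 genes tested. PAT1-21 rose at all 5 times, PAT1-8 at 4 of them and SCL13 at 1 h alone, which makes 10 calls of 15, all upward. Among all genes tested, the share that rose was 1.46%, 3.37%, 4.81%, 8.73% and 9.94% at the 5 successive times, and the median log2 fold change over all genes was 0.0021, -0.012, -0.021, -0.021 and -0.018. Nothing is read from the members' counts against these shares, because the genes were picked among called genes.

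PAT1-21 had log2 fold changes in YT of 2.46 ± 0.48 (SE), 3.09 ± 0.49, 1.41 ± 0.47, 2.53 ± 0.48 and 2.33 ± 0.48 at 0.5, 1, 2, 4 and 8 h. By edgeR's quasi-likelihood test the adjusted p was 0.00248, 6.4e-05, 0.0391, 0.000177 and 0.000291. The rise was thus largest at 1 h (8.54-fold) and smallest at 2 h (2.66-fold). The call at 2 h rested on single libraries, since it was lost without YT replicate 1, 2 or 3 at 0 h (adjusted p = 0.128, 0.120 and 0.0620) or without YT replicate 1 or 3 at 2 h (adjusted p = 0.112 and 0.0898), and it was lost in limma on log2(TPM + 1) of all genes (1.15, adjusted p = 0.0629). PAT1-8 had log2 fold changes of 1.76 ± 0.42 (SE), 2.01 ± 0.42, 1.04 ± 0.42, 1.83 ± 0.42 and 1.67 ± 0.42 at the same times. Its adjusted p was 0.0169, 0.00209, 0.0935, 0.00148 and 0.00231, so only the value at 2 h did not pass. That value was called in fits of the groups compared alone (1.04, adjusted p = 0.00554). Without YT replicate 1 at 4 h, the high library, its value at 4 h was 0.99 (adjusted p = 0.0767), and that of PAT1-21 was 1.64 (adjusted p = 0.00881). The call at 0.5 h was lost without YT replicate 1, 2 or 3 at 0 h (adjusted p = 0.0964, 0.1004 and 0.0582) or without YT replicate 3 at 0.5 h (adjusted p = 0.120).

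SCL13 had log2 fold changes in YT of 0.72 ± 0.28 (SE), 1.11 ± 0.29, 0.064 ± 0.28, 0.91 ± 0.29 and 0.82 ± 0.28 at 0.5, 1, 2, 4 and 8 h. The adjusted p from edgeR was 0.293, 0.0141, 0.929, 0.0188 and 0.0261. At 4 and 8 h the p passed and the size of the change did not, so those 2 values are under the limit on size and not without a difference. The call at 1 h was lost without YT replicate 1 at 0 h (1.09, adjusted p = 0.0620) or YT replicate 2 at 0 h (0.93, adjusted p = 0.115). The value at 4 h was called without YT replicate 3 at 0 h (1.12) and without YT replicate 2 (1.13) or 3 (1.04) at 4 h, and the value at 8 h without YT replicate 3 at 0 h (1.03).

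In TT the same comparison gave 14 calls of 15, all upward, with SCL13 at 8 h as the exception. Among all genes tested, the share that rose was 5.13%, 5.65%, 8.05%, 9.55% and 12.4% at the 5 successive times of cold. SCL13 had log2 fold changes of 2.35 ± 0.30 (SE), 2.08 ± 0.29, 1.40 ± 0.29, 1.36 ± 0.29 and 0.61 ± 0.28 at 0.5, 1, 2, 4 and 8 h. Its adjusted p by edgeR was 9.65e-07, 5.7e-06, 0.000391, 0.000461 and 0.0888. The rise was largest at 0.5 h, where SCL13 was 5.10-fold higher.

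PAT1-21 showed the largest rise of the 3 genes, 22.4-fold in TT at 0.5 h. Its log2 fold changes in TT were 4.49 ± 0.52 (SE), 3.95 ± 0.51, 2.63 ± 0.49, 2.46 ± 0.49 and 2.97 ± 0.49 at 0.5, 1, 2, 4 and 8 h, with adjusted p from edgeR between 2.58e-07 at 0.5 h and 0.000228 at 4 h. PAT1-8 had log2 fold changes of 3.39 ± 0.45 (SE), 2.70 ± 0.43, 1.87 ± 0.42, 1.23 ± 0.42 and 2.00 ± 0.42, with adjusted p from edgeR between 1.94e-06 at 0.5 h and 0.0222 at 4 h. The value of PAT1-8 at 4 h lost its call without TT replicate 1 or 3 at 0 h (adjusted p = 0.113 and 0.0511) or without TT replicate 2 or 3 at 4 h (adjusted p = 0.0573 and 0.0951). The other 13 calls in TT held without any single library of the groups compared.

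**Figure D2:**
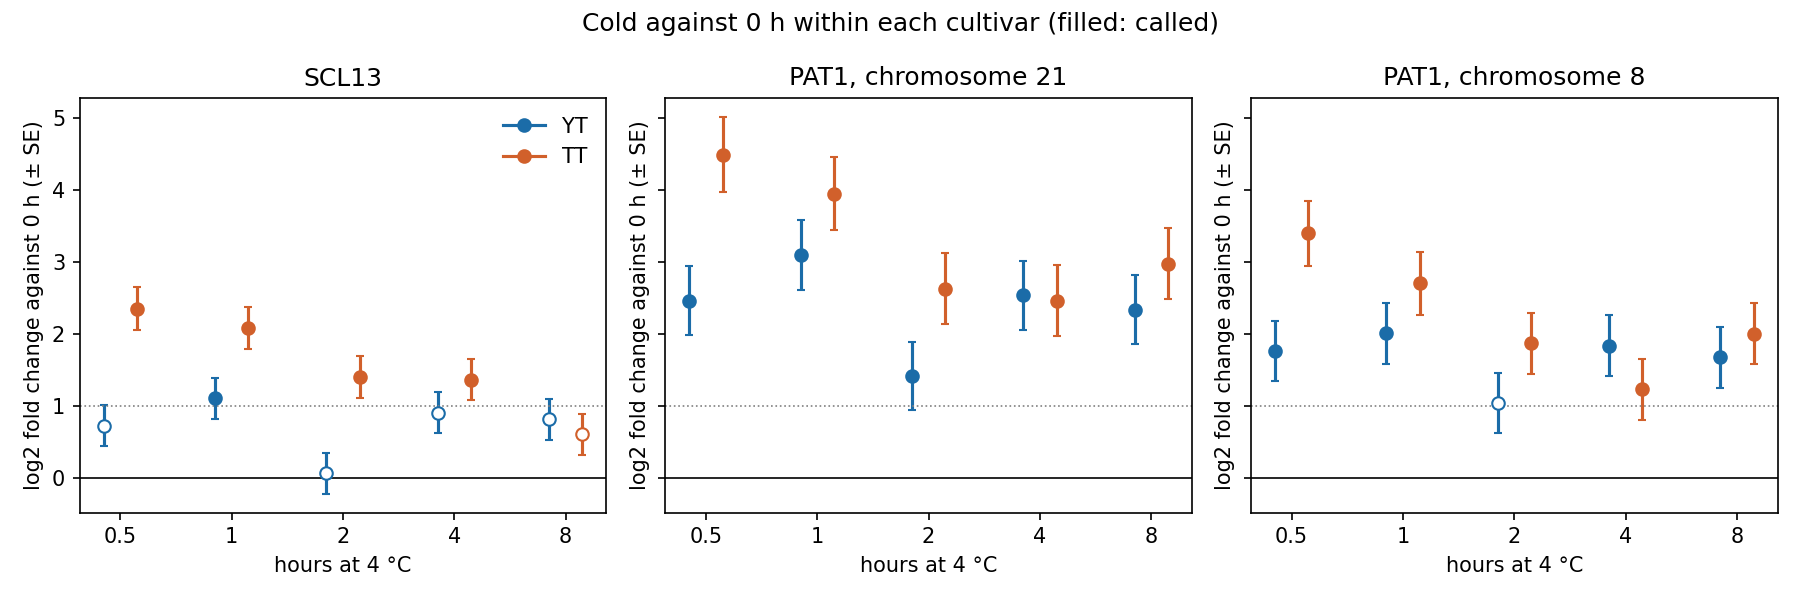
Log2 fold change against 0 h (± SE, edgeR, 3 libraries a group) at each time of cold, YT in blue and TT in orange, with filled points for calls and a dotted line at the limit of 1. SCL13 in YT is filled at 1 h alone, and the highest points of every panel are those of TT at 0.5 h (2.35, 4.49 and 3.39).

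Between the cultivars the 3 genes differed at 0.5 h of cold, when all 3 were lower in YT than in TT. SCL13 was also lower in YT at 2 h, and these 4 of 18 values were the calls. Among all genes tested, the share that was lower in YT was 2.6%, 2.68%, 2.79%, 2.22%, 2.57% and 1.92% at the 6 successive time points. At 0.5 h the TPM ranges of YT and TT did not overlap in any of the 3 genes. How many of all genes had separate ranges was not counted, so nothing is read from this either. The module was singled out with the levels of both cultivars at 0.5 h in view, so nothing is read from the 3 calls at that time against the share over all genes.

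At 0.5 h SCL13 averaged 64.2 ± 8.81 TPM in YT and 174 ± 62.4 TPM in TT (SD, n = 3 each). Its log2 fold change of YT over TT was -1.44 ± 0.29 (SE), with an adjusted p of 0.00123 by edgeR's quasi-likelihood test, so TT was 2.70-fold higher. PAT1-21 averaged 31.5 ± 3.09 TPM in YT and 98.8 ± 32.6 TPM in TT, a difference of -1.68 ± 0.46 (SE) on the log2 scale (adjusted p = 0.0174). PAT1-8 averaged 42.2 ± 6.81 TPM in YT and 129 ± 46.1 TPM in TT, a difference of -1.63 ± 0.41 (SE) on the log2 scale (adjusted p = 0.0103). All 3 values kept their call with the letter of the library name as a term, at -1.24, -1.46 and -1.45.

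The call of SCL13 at 0.5 h held without any single library. That of PAT1-21 was lost without YT replicate 1 or 2 (adjusted p = 0.0826 and 0.0518) or TT replicate 2 or 3 (adjusted p = 0.0636 and 0.0795) at 0.5 h. That of PAT1-8 was lost without YT replicate 1 (adjusted p = 0.0637) or TT replicate 3 (adjusted p = 0.0600) at 0.5 h. In both genes the values without these libraries stayed at -1.42 or below.

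At 2 h SCL13 averaged 40.5 ± 8.61 TPM in YT and 72.8 ± 20.4 TPM in TT (SD, n = 3 each), and its log2 fold change was -1.14 ± 0.29 (SE, adjusted p = 0.00933, edgeR). This call depended on single libraries and on the fit. Without TT replicate 2 at 2 h, whose letter was B, the value was -0.75 (adjusted p = 0.161), and without YT replicate 2 at 2 h it was -1.04 (adjusted p = 0.0682). With the letter as a term it was -0.92 (adjusted p = 0.0237) and in limma on log2(TPM + 1) -0.82 (adjusted p = 0.0312), both under the limit on size. In fits of the groups compared alone it was -1.11 (adjusted p = 0.0637).

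No call was made at 0, 1, 4 or 8 h. Before cold the log2 fold changes of YT over TT were 0.19 ± 0.28 (SE) for SCL13, 0.35 ± 0.48 for PAT1-21 and -0.0025 ± 0.42 for PAT1-8. The 95% intervals were -0.39 to 0.77, -0.63 to 1.33 and -0.85 to 0.85, so differences of these sizes at 0 h could not be resolved. On the TPM scale the libraries of YT at 0 h lay above those of TT in SCL13 and PAT1-21, whereas the scaled counts overlapped in all 3 genes. At 1 h the values were -0.78 ± 0.28 (SE), -0.50 ± 0.45 and -0.69 ± 0.41 in the same order of genes, with adjusted p of 0.0766, 0.571 and 0.325 by edgeR. At 4 h they were -0.27, 0.42 and 0.60, and after 8 h 0.40, -0.29 and -0.33. None of the values at 4 h is firm in its direction: without YT replicate 1 at 4 h those of PAT1-21 and PAT1-8 were -0.47 and -0.24, and without TT replicate 3 at 4 h that of SCL13 was 0.0074.

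**Figure D3:**
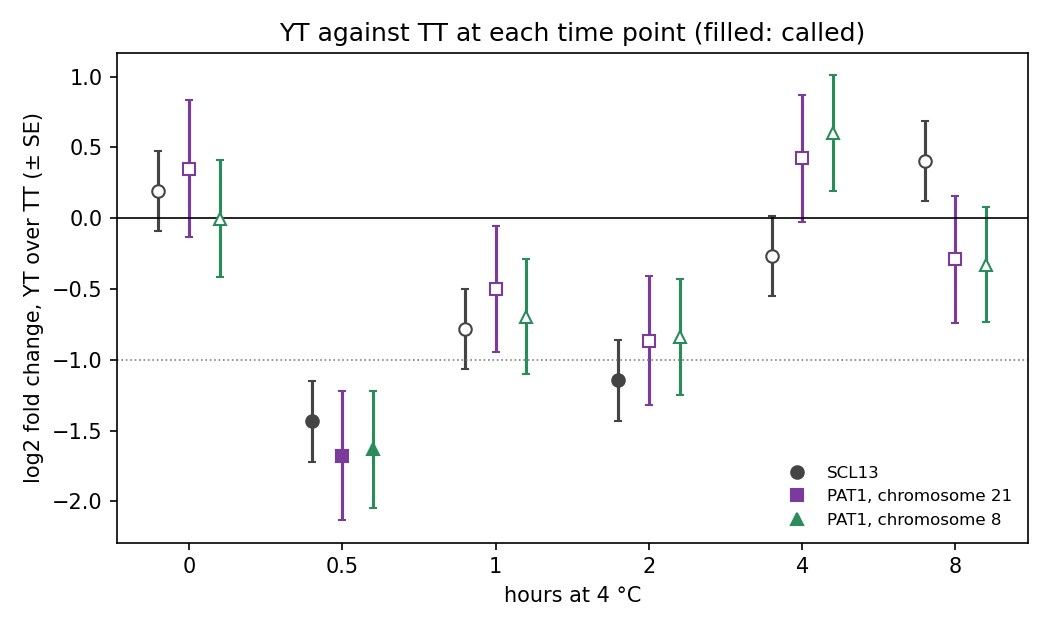
Log2 fold change of YT over TT (± SE, edgeR, 3 libraries a group) for the 3 GRAS genes at each time point, with filled symbols for calls and a dotted line at the limit of -1. The filled symbols are the 3 genes at 0.5 h, between -1.68 and -1.44, and SCL13 at 2 h.

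The interaction asks whether the response to cold itself differed, as the change against 0 h in YT minus that in TT. SCL13 at 0.5 h was the 1 call of 15, and like the comparison of the cultivars at that time it is a description, not independent of how the module was chosen. Its response was 0.72 ± 0.28 (SE) on the log2 scale in YT and 2.35 ± 0.30 in TT, and the difference was -1.63 ± 0.40 (SE, adjusted p = 0.0333, edgeR). Among all genes tested, the share with a called interaction of this sign was 1.2% at 0.5 h and 0.08%, 0.986%, 0.548% and 2.37% at the later times. The differences of PAT1-21 and PAT1-8 at 0.5 h were as large, at -2.03 ± 0.66 (SE, adjusted p = 0.0847) and -1.63 ± 0.58 (SE, adjusted p = 0.107), but did not pass edgeR's test. In limma on log2(TPM + 1) all 3 genes passed at 0.5 h, at -1.86 for SCL13 (adjusted p = 0.00320), -2.19 for PAT1-21 (adjusted p = 0.0284) and -1.97 for PAT1-8 (adjusted p = 0.0269), DESeq2 called PAT1-21 as well (adjusted p = 0.0419), and fits of the groups compared alone called PAT1-21 (adjusted p = 0.0171) and PAT1-8 (adjusted p = 0.0398).

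The call of SCL13 was lost in 6 of the 12 fits that left out a library of the 4 groups compared. These were the fits without YT replicate 1 or 3 at 0 h (adjusted p = 0.0531 and 0.103), TT replicate 1 or 2 at 0 h (adjusted p = 0.0899 and 0.0612) and TT replicate 2 or 3 at 0.5 h (adjusted p = 0.0737 and 0.1097), with values between -1.71 and -1.35. All TT libraries at 0 h carried the letter B, and with the letter as a term the value was -1.92 (adjusted p = 0.00469). At 2 h SCL13 had a difference of -1.34 ± 0.40 (SE, adjusted p = 0.0632), which edgeR did not call and DESeq2 did (-1.32, adjusted p = 0.0265). It was also called with the letter as a term (-1.60, adjusted p = 0.0202) and, by edgeR, without YT replicate 2 at 0 h (-1.51, adjusted p = 0.0391) or TT replicate 1 at 2 h (-1.53, adjusted p = 0.0293). Limma called it on log2(TPM + 1) (-1.31, adjusted p = 0.0493) and on log2(TPM + 0.1) (-1.34, adjusted p = 0.0469). On log2(TPM + 1) of all genes limma did not call it (-1.31, adjusted p = 0.0751). Without YT replicate 1 at 4 h, the high library of the PAT1 genes, 3 of the 15 interactions were called. The remaining differences lay between -1.22 (PAT1-21 at 2 h) and 0.60 (PAT1-8 at 4 h) and did not pass.

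The steps between neighbouring time points of cold show where the courses turned. Between 1 and 2 h SCL13 and PAT1-21 fell in YT, and PAT1-21 fell in TT, which are the 3 calls of 24 steps. Among all genes tested, 3.07% fell at this step in YT and 3.64% in TT. At the other steps the share that fell was 0.0168% (0.5 to 1 h), 1.65% (2 to 4 h) and 1.07% (4 to 8 h) in YT, and 0.00421%, 0.788% and 1.26% in TT. In YT at 2 h against 1 h the log2 fold change was -1.04 ± 0.29 (SE, adjusted p = 0.0164) for SCL13, -1.68 ± 0.46 (SE, adjusted p = 0.0162) for PAT1-21 and -0.97 ± 0.41 (SE, adjusted p = 0.141) for PAT1-8, by edgeR. The TPM of all 3 genes at 2 h lay below those at 1 h in every YT library. The same held for the TPM in TT, whereas the scaled counts (CPM) of TT overlapped in all 3 genes. How many of all genes had separate ranges at this step was not counted, so nothing is read from the separation. In TT the same step gave -0.68 ± 0.28 (SE, adjusted p = 0.109), -1.32 ± 0.45 (SE, adjusted p = 0.0490) and -0.83 ± 0.41 (SE, adjusted p = 0.179) in the same order.

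Each of these calls depended on single libraries. That of SCL13 was lost without YT replicate 2 or 3 at 2 h (adjusted p = 0.0847 and 0.0807). That of PAT1-21 in YT was lost without YT replicate 1 at 1 h (adjusted p = 0.0567) or YT replicate 2 or 3 at 2 h (adjusted p = 0.0839 and 0.0613). That of PAT1-21 in TT was lost without TT replicate 1 or 3 at 1 h (adjusted p = 0.0909 and 0.197) or TT replicate 1 or 3 at 2 h (adjusted p = 0.159 and 0.194), its value was -2.03 without TT replicate 2 at 2 h, and it was lost with the letter as a term (adjusted p = 0.0552) and in fits of the groups compared alone (-1.35, adjusted p = 0.0948). In limma on log2(TPM + 1) the step of PAT1-8 was called in YT (-1.18, adjusted p = 0.0230) and in TT (-1.10, adjusted p = 0.0292).

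After 2 h no step was called in either cultivar by edgeR's main design. With the letter as a term, SCL13 in TT at 8 h against 4 h was called (-1.08, adjusted p = 0.0171), where the value without that term was -0.76 (adjusted p = 0.111). In YT at 4 h against 2 h SCL13 was 0.84 ± 0.29 (SE, adjusted p = 0.0462), PAT1-21 1.12 ± 0.46 (SE, adjusted p = 0.102) and PAT1-8 0.80 ± 0.41 (SE, adjusted p = 0.212) on the log2 scale. SCL13 passed the p but not the size, and was called without YT replicate 1 at 2 h (1.01) or YT replicate 2 at 4 h (1.03). PAT1-21 was called without YT replicate 2 at 4 h (1.48, adjusted p = 0.0384), and without YT replicate 1 at 4 h its value was 0.23. Between 0.5 and 1 h the values were 0.38, 0.63 and 0.25 in YT and -0.27, -0.54 and -0.69 in TT, with no call.

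The 3 genes were chosen as hub genes of 1 co-expression module, so the likeness of their courses is given as a description. Over the 36 libraries the log2 CPM of PAT1-21 and PAT1-8 had a Pearson r of 0.956, SCL13 and PAT1-21 of 0.867 and SCL13 and PAT1-8 of 0.874. These points share time points and libraries and are given with no p. Among 20413 genes averaging 1 CPM or more, PAT1-21 was the closest to PAT1-8 and PAT1-8 the 2nd closest to PAT1-21. Each PAT1 gene ranked lower around SCL13, PAT1-8 at place 16 and PAT1-21 at place 21.

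The genes also varied together in many, but not all, replicates of a group. The deviations from the group means had an r of 0.781 between SCL13 and PAT1-21, 0.791 between SCL13 and PAT1-8 and 0.848 between the PAT1 genes over 36 libraries. Their signs were the same in 26, 23 and 29 of the 36 libraries, in that order. In TT at 8 h replicate 2 lay at 0.10, -0.79 and -0.54 in SCL13, PAT1-21 and PAT1-8, so the signs differed there. In YT at 4 h replicate 1 lay 0.65, 1.24 and 1.17 log2 CPM above its group mean in SCL13, PAT1-21 and PAT1-8. In TT at 2 h replicate 2 lay 0.64, 1.02 and 0.77 above its own, whereas in TT at 0.5 h replicate 1 lay at -0.58, -0.61 and -0.67. What set these libraries apart was not tested.

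The 2 PAT1 genes have models of equal length, so their counts can be set against each other within a library. The ratio of PAT1-8 to PAT1-21 was examined after the values had been seen. In YT it was 0.939 to 1.79 in the 15 cold libraries, with a median of 1.33, and 1.94 to 2.41 in the 3 libraries at 0 h, with no overlap. In TT it was 1.01 to 1.99 in the 15 cold libraries, with a median of 1.36, and 1.32 to 4.33 at 0 h. The ratio was lowest in YT at 1 h, at 1.04 ± 0.087 (SD, n = 3).

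The mean log2 ratio in cold minus that at 0 h was -0.73 in YT and -1.04 in TT. These values are given with no test, because the ratio was picked after the values had been seen and the cold libraries pool 5 times at which it differed (1.04 at 1 h and 1.67 at 2 h in YT). In TT the value without TT replicate 2 at 0 h was -0.80 and without TT replicate 3 at 0 h was -0.74. TT replicate 1 at 0 h had a ratio of 1.32, inside the range of the cold libraries, and without it the value was -1.60. At 0 h PAT1-21 had 171 to 242 counts in YT and 97 to 200 counts in TT, so the ratio there rests on fewer reads than in cold, and reads common to both genes were left out by the counting.

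**Figure D4:**
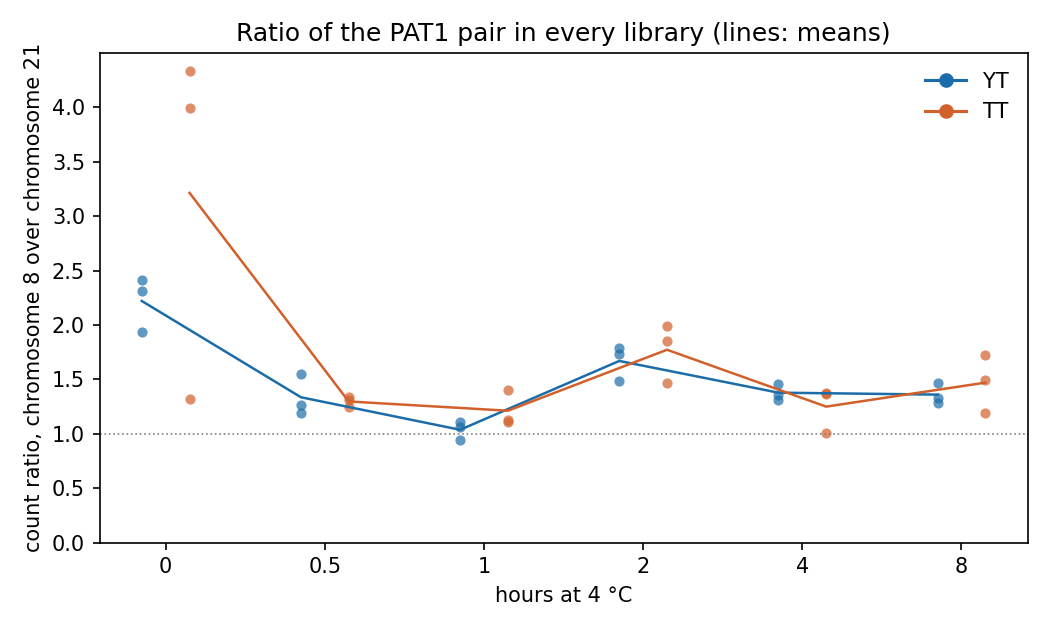
Ratio of the counts of PAT1-8 to those of PAT1-21 (linear axis from 0) in every library against hours at 4 °C (time points evenly spaced), with lines through the group means, YT in blue and TT in orange and a dotted line at a ratio of 1. The 3 YT points at 0 h lie above all YT points in cold, and 1 of the 3 TT points at 0 h lies among the cold ones.

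The genes whose log2 CPM followed each member most closely over the 36 libraries were named by rank of Pearson r. For SCL13 they were Nitab4.5_0001225g0190, annotated as a UDP-glycosyltransferase (r = 0.905), Nitab4.5_0002105g0060, which the study lists as a C2H2 TF (r = 0.898), Nitab4.5_0001030g0100 (r = 0.898), the zinc finger A20 and AN1 gene Nitab4.5_0000439g0050 (r = 0.894) and the glutaredoxin gene Nitab4.5_0006635g0010 (r = 0.893). For PAT1-21 they were the harpin-induced-like gene Nitab4.5_0001287g0070 (r = 0.957), PAT1-8, Nitab4.5_0006861g0010 (r = 0.954), Nitab4.5_0000241g0190 (r = 0.952) and Nitab4.5_0000439g0050 (r = 0.948). For PAT1-8 they were PAT1-21, Nitab4.5_0002105g0060 (r = 0.942), Nitab4.5_0001287g0070 (r = 0.939), Nitab4.5_0000439g0050 (r = 0.936) and the SRC2-like gene Nitab4.5_0000191g0040 (r = 0.931). Ranked by Spearman rho, 0 of the 5 stayed among the 5 closest to SCL13, 3 of 5 for PAT1-21 and 4 of 5 for PAT1-8, so the list of SCL13 depends on the measure.

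The other hub TFs of the same module are 4 AP2-EREBP genes and a C2H2 gene. Among the AP2-EREBP genes are 3 of the NtCBF genes, which encode C-repeat binding factors, regulators of the cold response in plants. Their r with SCL13 was 0.786 to 0.898, with PAT1-21 0.873 to 0.932 and with PAT1-8 0.836 to 0.942. At 0.5 h of cold 5 of 5 rose in YT, with a median log2 fold change of 4.68, and 5 of 5 rose in TT, with a median of 7.77, where 1.46% of all genes tested rose in YT and 5.13% in TT. Between the cultivars at 0.5 h, 3 of the 5 were lower in YT, with a median log2 fold change of -1.68, where 2.68% of all genes were lower. The values of the 5 lay between -2.35 and -0.81. The study's quantitative PCR, on other samples, went the other way at 0.5 h and at 8 h for NtCBF2, which is among these hub TFs. There NtCBF2 was higher in YT than in TT at 0 and 0.5 h and lower at 4 and 8 h. In these libraries the values of the 5 at 8 h lay between 0.17 and 1.28, with 0 called. At 0 h they lay between -1.12 and 1.71 and at 4 h between -1.13 and 0.48, so both signs occurred. The reason for these differences was not tested. The NtCBF proteins of the study match 15 different gene models, of which 9 passed the filter on low counts. Of these, 6 of 9 rose in YT and 9 of 9 in TT at 0.5 h, and 7 of 9 were lower in YT than in TT at that time, against the same shares of all genes. Before cold 0 of the 9 were called between the cultivars, with a median log2 fold change of YT over TT of -1.12. The interaction at 0.5 h was called in 0 of the 5 hub TFs and in 0 of the 9 NtCBF models. Among all genes tested, 1.2% had a called negative interaction at that time. The hub TFs were chosen on these libraries and so are not independent of the direction. The NtCBF genes were matched by protein sequence, but 3 of them are hub TFs. The filter also kept only models with enough counts in some of these libraries, which can be those where they are high. The counts of both lists are therefore descriptions and no independent evidence.

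Besides the 3 members, 4 GRAS genes are among the TFs that the study lists as differentially expressed at all times of cold. The list covers calls in TT, in YT or between them, and all 4 genes passed the filter. It is narrower than the full set of differentially expressed TFs. In that set the study reports similar shares of GRAS genes among up-regulated and down-regulated TFs. In TT 4 of 4 rose at every time of cold. In YT 2 of 4 rose after 0.5 h and after 2 h, and 4 of 4 after 1, 4 and 8 h. At 0.5 h the share of all genes that rose was 1.46% in YT and 5.13% in TT. The 4 genes had a median log2 fold change at 0.5 h of 1.48 in YT and 3.41 in TT, against a median over all genes of 0.0021 in YT and 0.0060 in TT. The list was made from calls at all times of cold in these same libraries. Calls at every time were thus largely set by the choice, and nothing is read from these counts or medians.

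Nitab4.5_0001735g0150 had log2 fold changes at 0.5 h of 1.304 ± 0.26 in YT and 2.48 ± 0.27 in TT (SE), and at 8 h of 2.02 ± 0.27 in YT and 1.79 ± 0.27 in TT. Nitab4.5_0003620g0010 had 1.65 ± 0.57 in YT, which did not pass, and 4.34 ± 0.62 in TT at 0.5 h, and 3.51 ± 0.60 in YT and 5.15 ± 0.64 in TT at 8 h. These were the 2 genes of the 4 that were lower in YT than in TT at 0.5 h, where 2.68% of all genes were, at -1.14 ± 0.26 and -2.35 ± 0.56 (SE). Nitab4.5_0004646g0060 had 0.36 ± 0.30 in YT, which did not pass, and 1.82 ± 0.31 in TT at 0.5 h, and 1.27 ± 0.30 in YT and 2.08 ± 0.31 in TT at 8 h. Nitab4.5_0004679g0020 had 3.25 ± 0.62 in YT and 4.68 ± 0.68 in TT at 0.5 h, and 1.92 ± 0.60 in YT and 2.50 ± 0.65 in TT at 8 h. The interactions of the 4 genes at 0.5 h, in the same order, were -1.17 (adjusted p = 0.0744, edgeR), -2.69 (adjusted p = 0.0662), -1.46 (adjusted p = 0.0648) and -1.44 (adjusted p = 0.340). None of these was called. Their median was -1.45, where that over all genes was -0.022. Nothing is read from this difference, because the list was made from calls at all times of cold in these same libraries.

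Genes beside the members were examined to see whether the difference between the cultivars at 0.5 h extended along the chromosome. The 5 tested genes on each side of SCL13, 10 in all, lay within 456 kb. Of these, 0 were lower in YT at any time and 4 were higher in YT at 1 or more of the 6 times. Of all genes tested, 9.22% were higher and 7.97% lower in YT at 1 or more of these times, and the share higher in YT was 3.48%, 1.83%, 2.45%, 2.67%, 4.17% and 1.98% at the 6 successive times. The nearest tested gene, 34.2 kb before SCL13, is Nitab4.5_0000143g0030, which was higher in YT at 3 times but averaged no more than 1.01 CPM in any group. Nitab4.5_0000143g0100, 144 kb after it, was higher in YT at 5 times, with log2 fold changes of 1.21 at 0 h and 0.95 at 0.5 h, where it stayed under the limit on size. Among the 10 neighbours of PAT1-21, 3 were higher in YT at some time, 1 was lower in YT at some time, and at 0.5 h 1 was higher and 0 lower. Among those of PAT1-8, 0 were higher, 1 was lower in YT at some time and neither direction was called at 0.5 h. No neighbour was called at all 6 times. At 0.5 h edgeR called 0 of the 30 neighbours lower in YT, and 0 of them were lower and 6 higher in YT at an unadjusted p under 0.05, where 11.4% of all genes were lower and 9.95% higher at such a p.

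**Figure D5:**
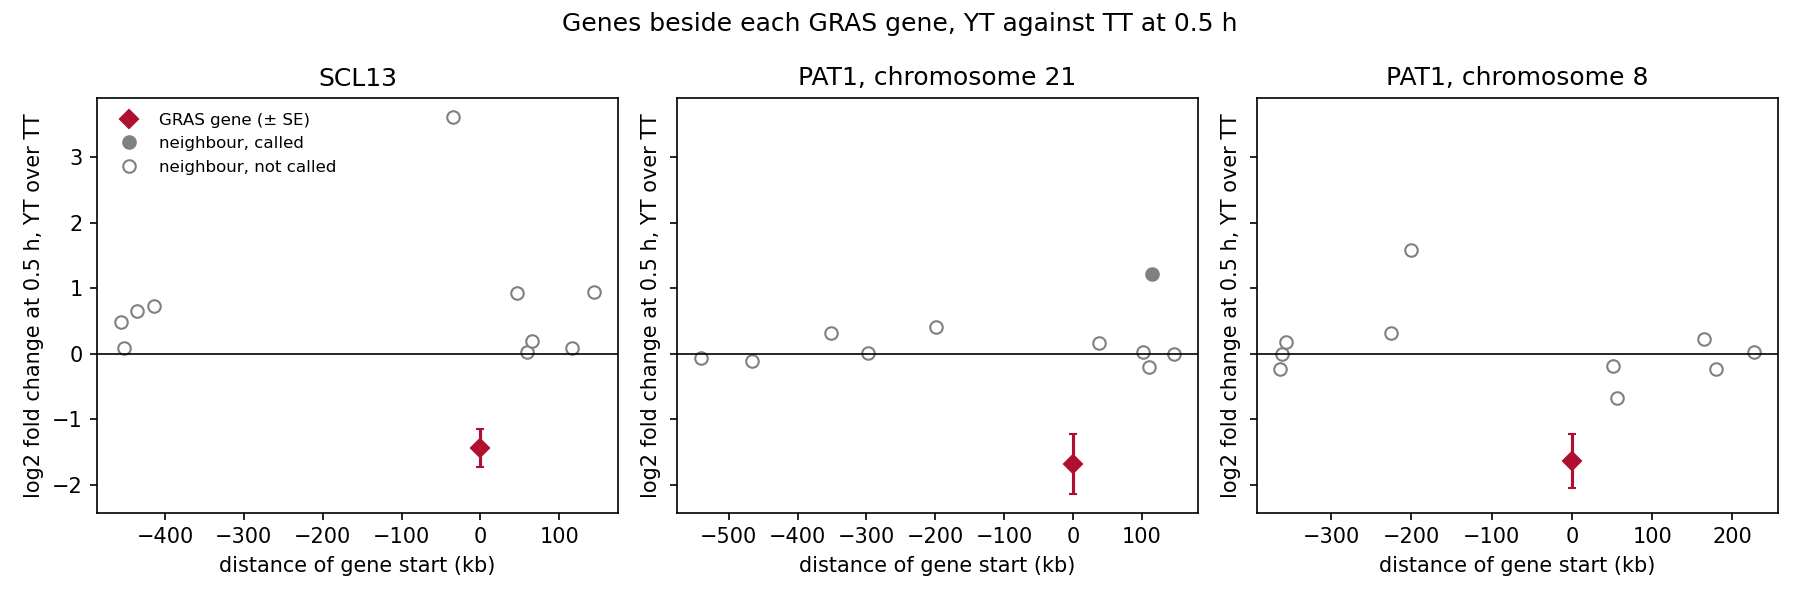
Log2 fold change of YT over TT at 0.5 h for each GRAS gene (red diamond, ± SE) and for the 5 tested genes on each side of it (grey circles, filled where called) against the distance between gene starts in kb. The members lie between -1.68 and -1.44, and the 1 filled neighbour, beside PAT1-21, is higher in YT.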

How the data were processed

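Poly(A) RNA of leaves was sequenced in 36 libraries. Per the file headers and the methods of the study, the authors trimmed reads with Trim Galore 0.6.4, aligned these by HISAT2 2.0.5, dropped poorly mapped ones by SAMtools 1.9 and deposited read counts from featureCounts 1.6.4 on Nitab-v4.5 gene models, without strand and without reads that map to several places, and TPM from StringTie 1.3.4d. Reads of one gene that the other PAT1 gene shares are therefore missing from the counts, which can lower both.

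Counts were fitted with edgeR 4.0.16 (R 4.3.3, quasi-likelihood, TMM scaling, filterByExpr on the 12 groups, 23740 genes) over all 36 libraries, with Benjamini-Hochberg adjustment over all genes tested. A call needed an absolute log2 fold change over 1 and an adjusted p under 0.05. Values as log2 CPM used a prior count of 2. DESeq2 1.42.0 on the counts and limma 3.58.1 on log2(TPM + 1) or log2(TPM + 0.1), for genes averaging 1 TPM or more or for all genes, were alternatives, as were fits without the filter, with DESeq2's size factors, with the replicate number as a block, with only the groups compared and without each library in turn. The fit with the letter of the library name, the change between 0.5 and 1 h and the ratio of the PAT1 genes were added after seeing the data. The scripts were tested on simulated data.

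The members and gene lists were chosen with earlier results of these data known. Named genes are the 3 members, the other GRAS genes, the 5 genes of highest Pearson r with each member (mean CPM of at least 1) and members' neighbours with a call, the last chosen after their values were seen. The labels call the replicates biological and name no plants, so p-values measure the spread between these libraries. Leave-one-out fits of a group with 2 libraries left share the spread of all groups.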

Additional observations from a re-analysis of the deposited data

Results flagged for a closer look

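The response of SCL13 to 0.5 h of cold differed between the cultivars by the test of the interaction itself, but the study singled out the module of this gene with the levels of both cultivars at 0.5 h in view, so the p is no independent evidence. The change against 0 h was 0.72 ± 0.28 (SE) on the log2 scale in YT and 2.35 ± 0.30 in TT, a difference of -1.63 ± 0.40 (SE, edgeR's quasi-likelihood test, Benjamini-Hochberg adjusted p = 0.0333), with 3 libraries in each of the 4 groups. Over the alternatives that kept every library the adjusted p was 0.00291 to 0.0407, and without single libraries the difference was -1.87 to -1.35, with an adjusted p of 0.0114 to 0.1097 and the call lost in 6 of 12 such fits. The cause was not tested. With 3 libraries in each group, no test for single outlying libraries was made.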

How the results depend on the processing

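Leaving out the filter on low counts or taking DESeq2's size factors changed the direction or the call of 0 of the 90 values of a gene in a comparison. The counts of calls against 0 h (10 in YT, 14 in TT) stayed within 1.5 times under every alternative. The 4 calls of YT against TT became 2 to 4 without single libraries, and the 3 calls of SCL13, PAT1-21 and PAT1-8 at 0.5 h held in every alternative that kept all libraries. The 1 called interaction became 3 with DESeq2, 2 with the letter of the library name as a term, 4 in limma on log2(TPM + 1), 4 on log2(TPM + 0.1), 3 on log2(TPM + 1) of all genes, 3 in fits of the groups compared alone and 0 to 3 without single libraries. The 3 called steps became 5 in each of the 3 limma fits and 0 to 5 without single libraries. The shares of all genes called in these other fits were not counted, so nothing is read from higher counts of calls. The correlation of the PAT1 genes (0.956) was 0.974 over YT libraries alone and 0.980 over group means. The replicate numbers showed no clear pairing of the samples. Deviations of same-numbered libraries had a median r of 0.0032, those of different numbers -0.0019, and 0 of 24 comparisons had every pair over 0.1. In YT at 4 h against 2 h the r of same-numbered libraries was 0.089 to 0.186. These values cannot tell how the seedlings were grouped at sampling. With the number as a block the call of PAT1-21 in TT at 2 h against 1 h was lost (-1.28, adjusted p = 0.0694, edgeR) and no other call changed.

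The values that changed sign had no call under the main design or the alternative. With the letter as a term, PAT1-21 in TT at 4 h against 2 h (-0.17) was 0.15, its interaction at 4 h (0.072) -0.52, PAT1-8 in YT against TT at 0 h (-0.0025) 0.47, SCL13 in TT at 4 h against 2 h (-0.037) 0.18 and its interaction at 8 h (0.21) -0.11. In limma on log2(TPM + 1), with or without the filter, these 5 were 0.046, -0.30, 0.44, 0.12 and -0.11, and on log2(TPM + 0.1) 0.046, -0.43, 0.48, 0.12 and -0.12. SCL13 in YT at 2 h against 0 h (0.064) was -0.013 in each limma fit, and the interaction of PAT1-8 at 4 h (0.60) was -0.012 on log2(TPM + 0.1). PAT1-8 in YT against TT at 0 h was 0.0019 in fits of the groups compared alone and 0.0012 with the replicate block. Without single libraries the ranges that crossed 0 were, for PAT1-21, -0.83 to 0.48 (interaction at 4 h), -0.58 to 0.54 (TT, 4 h against 2 h), -0.55 to 0.70 (YT, 8 h against 4 h) and -0.47 to 0.83 (YT against TT at 4 h). For PAT1-8 they were -0.23 to 0.94 (interaction at 4 h), -0.041 to 1.13 (YT, 4 h against 2 h), -0.58 to 0.68 (YT, 8 h against 4 h), -0.22 to 0.25 (YT against TT at 0 h) and -0.24 to 0.93 (YT against TT at 4 h). For SCL13 they were -0.51 to 0.0059 (TT, 1 h against 0.5 h), -0.31 to 0.36 (TT, 4 h against 2 h), -0.11 to 0.28 (YT, 2 h against 0 h), -0.28 to 0.32 (YT, 8 h against 4 h), -0.021 to 0.36 (YT against TT at 0 h) and -0.67 to 0.0074 (YT against TT at 4 h). The cause was not tested. With 3 libraries a group, differences within the intervals given in the text cannot be resolved.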
